A study of Mus musculus with 7 samples.

Results

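The BCL-2 family sets whether a cell's mitochondria release the proteins that start its death, and 10 of its genes were followed here in CD4+ T cells that lack a working Foxp3, with and without interleukin-2. The 10 genes are Bcl2, Bcl2l1, Mcl1, Bcl2l11, Bbc3, Pmaip1, Bid, Bad, Bak1 and Bax, chosen by name as the best known survival and death members. Probe sets were taken where the array annotation named 1 of these genes and no other, which gave 29 probe sets for 9 genes, out of 18193 genes measured in all. Array values of Bax were not analysed here. All 9 genes passed the filter on dim probe sets and stand among the 11460 genes tested. The brightest probe set of a gene gives its main value, and the other probe sets are set beside it.

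The data are 7 Affymetrix arrays. Peripheral lymph nodes of male mice, 3 weeks of age, supplied the CD4+ T cells, sorted for CD3 and CD4 after cells bearing B220, CD8, CD11b, CD11c or NK1.1 had been removed. Sf.Il2-/- mice (3 arrays) are scurfy mice with a null Il2 allele (B6.129P2-Il2tm1Hor/J), so they lack both functional Foxp3 and interleukin-2. Sf mice (3 arrays) carry the scurfy mutation of Foxp3 (B6.Cg-Foxp3sf/J), the factor that regulatory T cells need, and they keep Il2. B6 mice (C57BL/6, 1 array) carry neither, and their RNA came from the pooled lymph nodes of 2 mice. Both mutations are present in every cell of the animal, so an effect within the T cell and an effect of the diseased animal on it cannot be told apart. Setting Sf.Il2-/- against Sf shows what losing interleukin-2 changes in Foxp3-mutant cells. Sf v B6 asks what the Foxp3 mutation changes, and Sf.Il2-/- v B6 asks what both mutations together change.

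Proteins of this family meet at the outer mitochondrial membrane. BCL-2, BCL-XL (the product of Bcl2l1) and MCL-1 protect the cell by holding the other members in check. BH3-only proteins, among them BIM (Bcl2l11), PUMA (Bbc3), NOXA (Pmaip1), BID and BAD, carry death signals by binding the protectors or by switching on the effectors BAX and BAK, which open pores and free cytochrome c. In T cells, BCL-2 and MCL-1 maintain resting cells, BIM removes cells at the end of a response, and cytokines such as interleukin-2 and interleukin-7 are known to favour survival partly through BCL-2. Forkhead (FOXO) factors are known activators of the Bcl2l11 and Bbc3 genes when growth factor signals are low.

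For that reason the start regions of the members were searched for the FOXO core letters GTAAACA on both strands. The search covered 9 of the members, with Bax among them, and Pmaip1 was not searched. Of their 15 promoter windows (RefSeq, GRCm38.p6, 300 bases around each start), 2 held these letters, 1 of Bcl2l11 and 1 of Bbc3. The letters occur in 3.65% of all 32851 windows of that length. The Bcl2l11 window lies at chr2:128125788-128126087 on the plus strand and the Bbc3 window at chr7:16310011-16310310 on the plus strand. Capitals mark the FOXO letters, which in Bbc3 are read on the opposite strand.
Bcl2l11: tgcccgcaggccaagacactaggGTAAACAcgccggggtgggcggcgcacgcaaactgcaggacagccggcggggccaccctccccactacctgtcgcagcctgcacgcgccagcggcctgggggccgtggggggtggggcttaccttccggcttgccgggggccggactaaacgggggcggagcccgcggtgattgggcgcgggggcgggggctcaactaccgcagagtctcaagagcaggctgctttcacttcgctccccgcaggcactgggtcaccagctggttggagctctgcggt
Bbc3: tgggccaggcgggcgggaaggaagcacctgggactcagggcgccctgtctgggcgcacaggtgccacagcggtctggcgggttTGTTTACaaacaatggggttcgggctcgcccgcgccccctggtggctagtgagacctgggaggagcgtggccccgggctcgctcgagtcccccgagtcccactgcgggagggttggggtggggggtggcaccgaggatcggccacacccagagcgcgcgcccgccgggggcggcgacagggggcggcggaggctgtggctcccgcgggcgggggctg
The letters stand 227 to 221 bases before the start in Bcl2l11 and 167 to 161 bases before it in Bbc3. The STAT letters TTCNNNGAA, which STAT5 downstream of interleukin-2 can bind, were in 0 of the 15 member windows and in 8.3% of all windows. A match describes the letters of these windows and not binding.

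The values are the authors' array intensities, taken as log2(intensity + 1). Median intensities per array lay between 29.3 and 32.4 and upper quartiles between 110 and 145. By their values alone, the arrays fall into 2 sets whose division is uncertain, with Sf.Il2-/- 1, Sf.Il2-/- 2, Sf 1 and Sf 2 in set 1 and Sf.Il2-/- 3, Sf 3 and B6 in set 2. Of the 9 CD4 T cell markers listed, the 7 measured read between 9.44 and 11.85 in every array. The Il2 probe set read 7.17, 8.20 and 7.74 in the arrays labelled Sf.Il2-/-, 5.39, 5.09 and 7.35 in Sf and 5.22 in B6. No array labelled Sf.Il2-/- was below the B6 array, and since the position of its probes relative to the disrupted part of Il2 is not given, it does not test the genotype. Foxp3 read 4.41, 4.20 and 4.24 in the arrays labelled Sf.Il2-/-, 6.04, 5.87 and 6.32 in Sf and 7.25 in B6. In bulk RNA, fewer cells that use a gene and less RNA per cell cannot be told apart.

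Pmaip1, the gene of NOXA, was the 1 member of 9 to pass the threshold, and it was higher in both mutants than in B6. Between Sf.Il2-/- and Sf, 0 of the 9 members passed, which does not show that they act alike there. Against a background of 0.279% of all genes tested in Sf.Il2-/- v Sf, limma with Benjamini-Hochberg adjustment called 0 of the 9 members at 0.05. It called 1 of 9 in Sf v B6, where 2.47% of all genes were called (1.31% higher and 1.16% lower), and 1 of 9 in Sf.Il2-/- v B6, where 2.69% were (1.49% higher and 1.2% lower). In a fit with 1 row per probe set, limma called 0, 1 and 1 of the 27 member probe sets tested, beside 0.112%, 1.51% and 1.7% of 20617. At an unadjusted p under 0.05 the limma counts were 0, 1 and 2 of 9, beside 7.92%, 22.5% and 18.6% of all genes. Among the 27 member probe sets tested they were 4 (3 of Bcl2 and 1 of Bid), 5 (4 of Mcl1 and that of Pmaip1) and 9 (5 of Bcl2, 2 of Mcl1, 1 of Bid and that of Pmaip1), beside 7.21%, 19.8% and 17.6% of all probe sets. The median log2 differences of the members were 0.11 for Sf.Il2-/- v Sf, -0.09 for Sf v B6 and 0.17 for Sf.Il2-/- v B6, where the medians of all genes were 0.08, -0.25 and -0.14. Quantile normalization moves the all-gene medians to 0.03, 0.03 and 0.06. The comparisons with B6 share the B6 array, and with 1 such array limma assumes that B6 varies like the mutants.

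**Figure D1:**
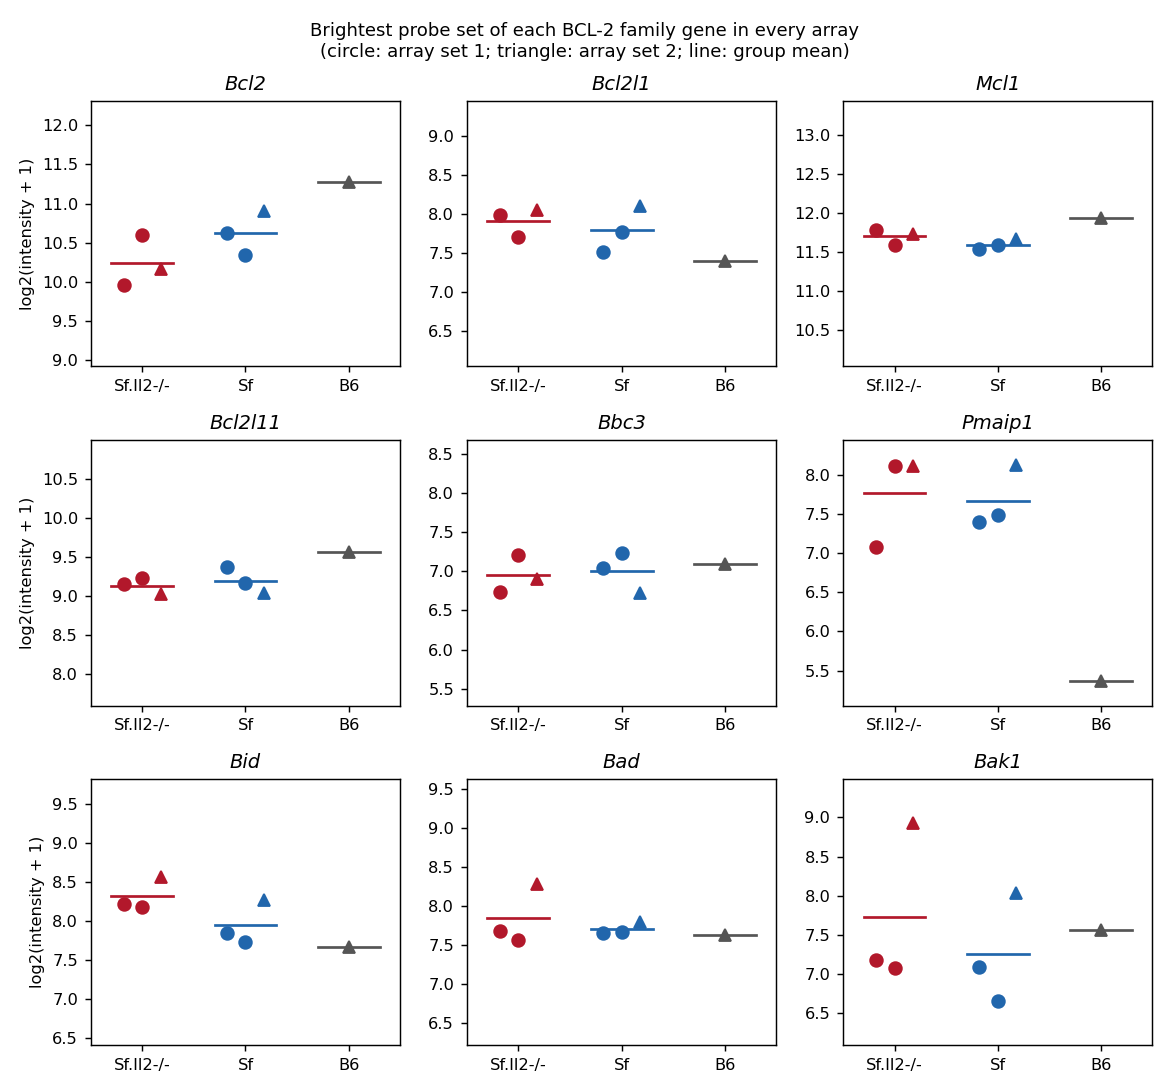
Level of each of the 9 measured BCL-2 family members in each of the 7 arrays (log2 of intensity + 1, brightest probe set), 1 panel per gene, with Sf.Il2-/- left, Sf in the middle and B6 right, circles for arrays of set 1, triangles for set 2 and short lines for group means. Pmaip1 lies between 7.08 and 8.13 in the 6 mutant arrays and at 5.37 in B6, while in Bbc3, Bad and Bak1 the B6 point lies within the range of the mutant points.

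Among the protective members, Bcl2 had its highest value in B6 and its lowest in the Sf.Il2-/- group. Its brightest probe set read 9.95, 10.60 and 10.16 in Sf.Il2-/-, 10.63, 10.34 and 10.90 in Sf and 11.28 in B6. All 6 mutant arrays lay below B6, whereas Sf.Il2-/- 2 lay within the range of Sf. The difference was -1.04 ± 0.31 in Sf.Il2-/- v B6 (log2 ± SE, with 3 arrays and 1; limma adjusted p = 0.125). The 95% interval was -1.73 to -0.35 before adjustment. The difference was -0.65 ± 0.31 in Sf v B6 (limma adjusted p = 0.243) and -0.39 ± 0.22 in Sf.Il2-/- v Sf (adjusted p = 0.761). None of these passed the threshold.

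All 5 Bcl2 probe sets had differences below 0 in every comparison. They lay between -0.85 and -0.39 for Sf.Il2-/- v Sf, between -0.94 and -0.47 in Sf v B6 and between -1.63 and -1.04 in Sf.Il2-/- v B6. Probe sets of a gene share its RNA and are not replicates. Under quantile normalization the brightest one differed by 0.03 in Sf v B6, so that sign depends on the scaling. The sets of arrays also differed. Within set 2 (Sf.Il2-/- 3 against Sf 3) the brightest probe set differed by -0.74 and the other 4 by -1.90 to -1.21, whereas within set 1 the 5 probe sets differed by -0.44 to -0.12. In Sf 3 against B6, both in set 2, 3 of the 5 probe sets were above 0. Summed intensities of some cell type markers were highest in B6 as well. That of the 7 CD4 T cell markers measured was 15451 to 16918 in Sf.Il2-/-, 9852 to 13457 in Sf and 18588 in B6. Of these, Cd4 and Cd5 were highest in B6, whereas Cd3e, Cd3d, Cd3g, Cd2 and Cd28 were each highest in a Sf.Il2-/- array. The summed intensity of the 2 CD8 T cell markers was 151 to 201 in Sf.Il2-/-, 146 to 201 in Sf and 312 in B6. The summed intensity of the 2 red cell markers measured of 3 was 7.28 to 20.5 in Sf.Il2-/-, 14.43 to 18.01 in Sf and 56.8 in B6, with Alas2 at 2.85 to 4.25 in the mutants and 5.81 in B6 (log2) and Hba-a1 at 1.00 to 1.80 in all arrays. None of these markers was at 0, but Hba-a1 was far below the filter at 5 in every array. Their part in the Bcl2, Mcl1 and Foxo1 differences was not tested.

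Bcl2l1, whose product BCL-XL is raised when T cells are activated, read 7.99, 7.71 and 8.05 in Sf.Il2-/-, 7.52, 7.77 and 8.11 in Sf and 7.40 in B6. Every mutant array was above B6, and the mutant groups overlapped. The differences were 0.52 ± 0.31 in Sf.Il2-/- v B6 (limma adjusted p = 0.420, 95% interval -0.19 to 1.22), 0.40 ± 0.31 in Sf v B6 (adjusted p = 0.452) and 0.12 ± 0.22 in Sf.Il2-/- v Sf (adjusted p = 0.956). Of its 4 probe sets, 1 stayed below the filter, and in each comparison 3 were above 0 and 1 below.

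Mcl1 is a short-lived protector needed throughout a T cell's life. Its brightest probe set read 11.78, 11.59 and 11.73 in Sf.Il2-/-, 11.53, 11.58 and 11.66 in Sf and 11.94 in B6. B6 was above every mutant array. The difference was 0.11 ± 0.12 in Sf.Il2-/- v Sf (limma adjusted p = 0.911, 95% interval -0.16 to 0.38), -0.34 ± 0.17 in Sf v B6 (adjusted p = 0.264) and -0.23 ± 0.17 in Sf.Il2-/- v B6 (adjusted p = 0.504). All 6 probe sets had differences below 0 in both comparisons with B6, between -0.95 and -0.34 in Sf v B6 and between -0.65 and -0.23 in Sf.Il2-/- v B6. Under quantile normalization 4 of the 6 stayed below 0 in Sf v B6. In Sf.Il2-/- v Sf all 6 lay above 0 (0.10 to 0.30), and all 6 lay below 0 (-0.20 to -0.09) under quantile normalization.

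**Figure D2:**
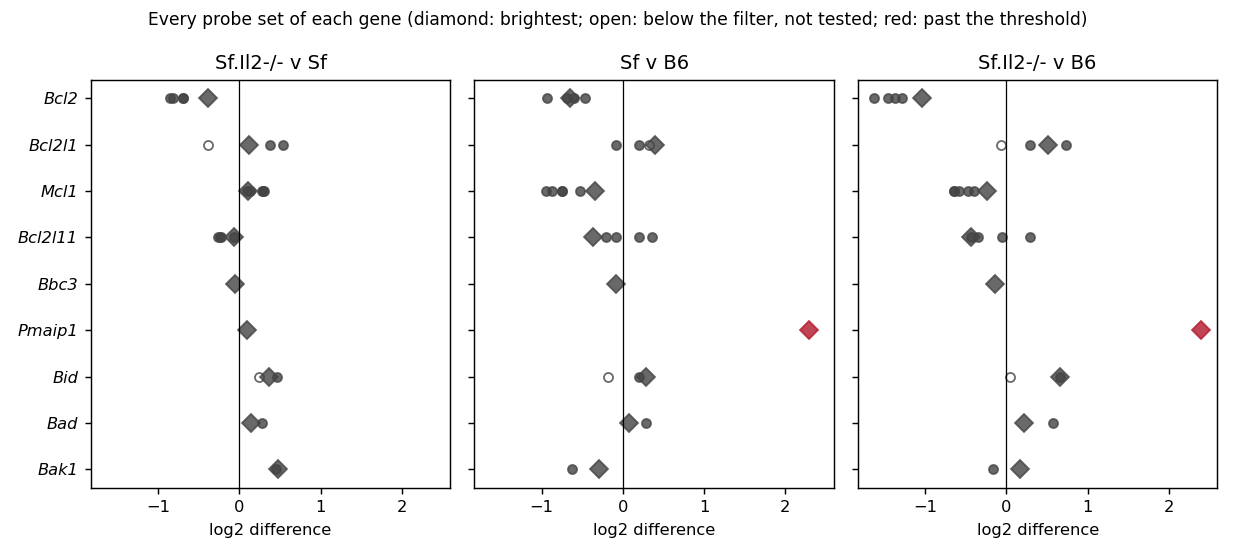
Difference between groups (log2) for each of the 29 probe sets of the 9 members, 1 panel per comparison (Sf.Il2-/- v Sf, Sf v B6, Sf.Il2-/- v B6), with 1 row per gene, the brightest probe set marked and the line at 0 for no difference. The 5 Bcl2 points lie left of 0 in all panels, the 6 Mcl1 points lie left of 0 in both comparisons with B6, and the Pmaip1 point stands at 2.30 and 2.40 there.

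Of the BH3-only genes, Pmaip1 rose in both mutants. Its product NOXA binds mainly MCL-1 and blocks its protection. The single Pmaip1 probe set read 7.08, 8.11 and 8.12 in Sf.Il2-/-, 7.40, 7.49 and 8.13 in Sf and 5.37 in B6. The B6 array stood far below all 6 mutant arrays, and the ranges of the mutant groups overlapped. In Sf v B6 the difference was 2.30 ± 0.45, a 4.92-fold rise (limma adjusted p = 0.0320, 95% interval 1.29 to 3.31). In Sf.Il2-/- v B6 it was 2.40 ± 0.45, a 5.28-fold rise (limma adjusted p = 0.0291, 95% interval 1.39 to 3.41). Between Sf.Il2-/- and Sf it was 0.10 ± 0.32 (limma adjusted p = 0.971, 95% interval -0.62 to 0.82).

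The size of the Pmaip1 difference varied less than its call. Over the alternatives it lay between 1.96 and 2.76 in Sf v B6 and between 2.05 and 2.80 in Sf.Il2-/- v B6, and within set 2 it was 2.76 for Sf 3 and 2.74 for Sf.Il2-/- 3. The smallest sizes came with a pseudocount of 16, as the B6 value lies near the filter at 5. Without the filter on dim genes the limma adjusted p was 0.0686 and 0.0619, past the threshold in neither comparison. The call in Sf.Il2-/- v B6 was also lost without Sf.Il2-/- 2 (adjusted p = 0.0637) or without Sf.Il2-/- 3 (adjusted p = 0.0628). The summed intensity of the NK cell markers was also lowest in B6, at 456, 816 and 961 in Sf.Il2-/-, 249, 164 and 355 in Sf and 129 in B6. Of the 2 markers measured of 3, Eomes, which CD4 T cells can also express, passed 5 on the log2 scale. Ncr1 was not lowest in B6, at 3.01 there and between 2.14 and 3.12 in the mutant arrays. That of the dendritic cell markers (3 measured of 4, none at 0) was 88.6, 99.8 and 69.7 in Sf.Il2-/-, 67.3, 72.0 and 68.4 in Sf and 51.8 in B6. The part of either in the Pmaip1 difference was not tested.

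The genes tested whose pattern over the 7 arrays was most like that of Pmaip1 were Rab39b (Pearson r = 0.983), Ctla2a (r = 0.982) and S100a4 (r = 0.980). Such correlations describe these 7 arrays, which share the gap between B6 and the mutants. Rab39b encodes a small GTPase, Ctla2a a cysteine protease inhibitor and S100a4 a calcium-binding protein. S100a4 read 10.74, 11.55 and 11.45 in Sf.Il2-/-, 10.88, 10.75 and 11.18 in Sf and 8.62 in B6, so here too B6 stood below all mutant arrays.

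Bcl2l11, whose product BIM binds all the protectors, read 9.15, 9.23 and 9.02 in Sf.Il2-/-, 9.37, 9.17 and 9.04 in Sf and 9.57 in B6. B6 was the highest array, and the mutant groups overlapped. The difference was -0.06 ± 0.19 in Sf.Il2-/- v Sf (limma adjusted p = 0.971, 95% interval -0.49 to 0.37), -0.37 ± 0.27 in Sf v B6 (adjusted p = 0.415) and -0.43 ± 0.27 in Sf.Il2-/- v B6 (adjusted p = 0.428). Its 5 probe sets disagreed in sign, with 2 of 5 above 0 in Sf v B6 and 1 of 5 in Sf.Il2-/- v B6. Under quantile normalization 5 of 5 were above 0 in Sf v B6. These data thus give no settled direction for Bcl2l11.

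Bbc3, the gene of PUMA, read 6.74, 7.21 and 6.90 in Sf.Il2-/-, 7.04, 7.24 and 6.73 in Sf and 7.09 in B6. B6 lay inside the range of both mutant groups. The differences were between -0.14 and -0.05 in the 3 comparisons (limma adjusted p = 0.856 to 0.977), and the 95% interval in Sf v B6 was -0.78 to 0.60. Bbc3 and Bcl2l11, whose start regions hold the FOXO letters shown above, had no difference past the threshold. Intervals of this width do not show that the groups are alike.

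Bid, whose product links death receptors to mitochondria once cleaved, had its lowest value in B6. It read 8.22, 8.19 and 8.57 in Sf.Il2-/-, 7.85, 7.74 and 8.28 in Sf and 7.67 in B6. All mutant arrays were above B6, and Sf 3 reached the range of Sf.Il2-/-. The difference was 0.66 ± 0.32 in Sf.Il2-/- v B6 (limma adjusted p = 0.304, 95% interval -0.05 to 1.37), 0.29 ± 0.32 in Sf v B6 (adjusted p = 0.593) and 0.37 ± 0.22 in Sf.Il2-/- v Sf (adjusted p = 0.793). It passed the threshold in Sf.Il2-/- v B6 under quantile normalization (0.89, limma adjusted p = 0.0226) and with the array set as a block (0.94, adjusted p = 0.0362). Over all genes, the calls in that comparison rose from 308 to 723 under quantile normalization. On the intensities as given, a second probe set differed by 0.66 in Sf.Il2-/- v B6 and the third, below the filter, by 0.05.

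Bad, a BH3-only gene whose product growth factor signals switch off by phosphorylation, read 7.69, 7.56 and 8.29 in Sf.Il2-/-, 7.66, 7.67 and 7.79 in Sf and 7.63 in B6. Except for Sf.Il2-/- 3, the arrays stood close together. The differences were 0.14, 0.08 and 0.22 in Sf.Il2-/- v Sf, Sf v B6 and Sf.Il2-/- v B6 (limma adjusted p = 0.951, 0.895 and 0.769). Without Sf.Il2-/- 3 the last was -0.0043.

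Bak1, the one effector measured, read 7.18, 7.08 and 8.93 in Sf.Il2-/-, 7.09, 6.65 and 8.04 in Sf and 7.56 in B6. Its high arrays, Sf.Il2-/- 3, Sf 3 and B6, are the arrays of set 2. Its second probe set had the same order of sets, at 4.34, 4.54 and 6.54 in Sf.Il2-/-, 4.16, 4.42 and 5.46 in Sf and 5.31 in B6. The differences were 0.47 ± 0.50 in Sf.Il2-/- v Sf (limma adjusted p = 0.902), -0.30 ± 0.71 in Sf v B6 (adjusted p = 0.813) and 0.17 ± 0.71 in Sf.Il2-/- v B6 (adjusted p = 0.928). With the array set as a block, Sf v B6 was 0.70 (limma adjusted p = 0.211) and Sf.Il2-/- v B6 was 1.17 (adjusted p = 0.0551). Sf.Il2-/- v Sf was 0.26 within set 1 and 0.89 within set 2. What the sets stand for was not tested.

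**Figure D3:**
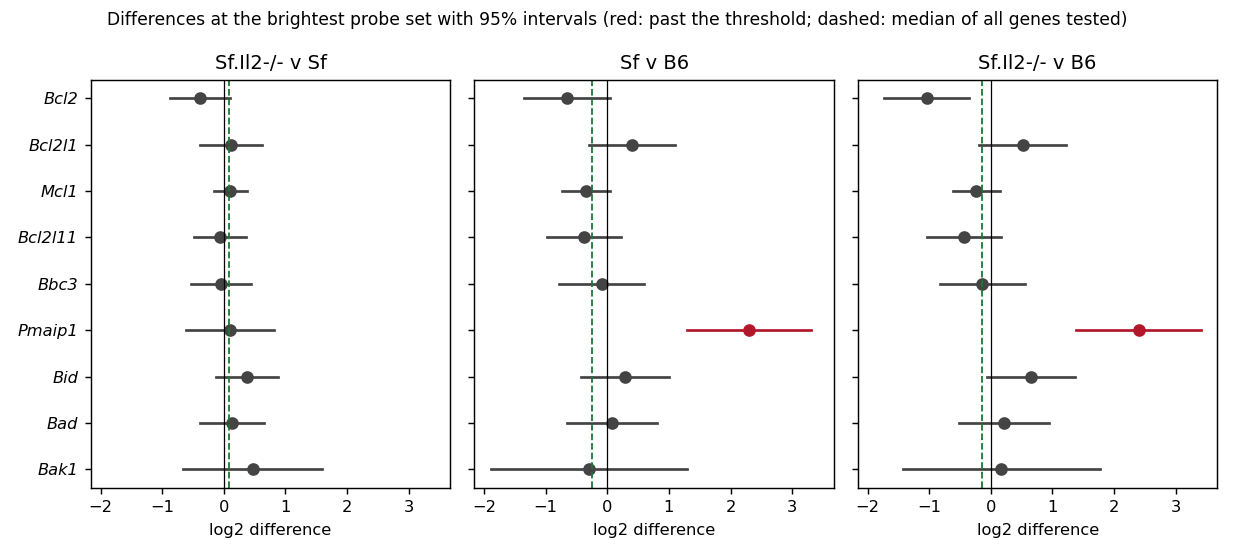
Difference (log2) of each of the 9 members in the 3 comparisons (Sf.Il2-/- v Sf, Sf v B6, Sf.Il2-/- v B6) with 95% intervals from limma, at the brightest probe set. The intervals of Pmaip1 in both comparisons with B6 run from 1.29 to 3.31 and from 1.39 to 3.41, that of Bcl2 in Sf.Il2-/- v B6 ends at -0.35, and Bak1 has the widest intervals.

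Read by role, the protectors and the BH3-only genes each held differences of both signs. In Sf v B6, 4 members had all Sf arrays above B6 (Bcl2l1, Pmaip1, Bid and Bad), where 19.6% of all genes did, and 3 had all below (Bcl2, Mcl1 and Bcl2l11), where 46.9% did. In Sf.Il2-/- v B6 the counts were 3 above (Bcl2l1, Pmaip1 and Bid) and 3 below (Bcl2, Mcl1 and Bcl2l11), beside 24.7% and 44.5% of all genes. Under quantile normalization, Bcl2, Mcl1 and Bcl2l11 differed by 0.03, 0.03 and 0.13 in Sf v B6, so their direction there depends on the scaling. Between Sf.Il2-/- and Sf the arrays of 0 of 9 members were fully apart, beside 12.1% of all genes. Within groups, Sf 3 was the highest Sf array for 7 of 9 members, as it was for 68% of all genes.

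Other genes of the pathway were counted from 3 lists. Among 16 further BCL-2 family genes, 11 were measured and 7 tested. Of these, 0 were called in any of the 3 comparisons, beside 0.279% of all genes in Sf.Il2-/- v Sf, 2.47% in Sf v B6 and 2.69% in Sf.Il2-/- v B6. At an unadjusted limma p under 0.05 the counts were 0, 1 and 0, beside 7.92%, 22.5% and 18.6% of all genes. Bcl2l2, the gene of the protector BCL-W, read 5.54, 5.86 and 5.81 in Sf.Il2-/-, 5.49, 5.42 and 5.33 in Sf and 6.26 in B6, with B6 above every mutant array. Its difference was -0.85 ± 0.30 in Sf v B6 (limma adjusted p = 0.145) and -0.53 ± 0.30 in Sf.Il2-/- v B6 (adjusted p = 0.388), but 0.17 and 0.20 when its probe sets were averaged. Bcl2l14 differed by 0.54 in Sf v B6 (limma adjusted p = 0.311) and by 0.57 in Sf.Il2-/- v B6 (adjusted p = 0.353).

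Of 18 genes of the death machinery downstream of the mitochondria, 16 were measured and tested, and 1 was called, in Sf.Il2-/- v B6. It was Birc5, the gene of survivin, which serves cell division and is known as an inhibitor of apoptosis. Birc5 read 10.37, 9.82 and 10.12 in Sf.Il2-/-, 9.74, 9.41 and 10.19 in Sf and 8.47 in B6, so all mutant arrays were above B6. It rose by 1.63 ± 0.34 in Sf.Il2-/- v B6 (limma adjusted p = 0.0426). Of the 13 alternatives with a test, 6 lost this call (limma adjusted p = 0.0513 to 0.126), among them leaving out any 1 Sf.Il2-/- array. In Sf v B6 Birc5 differed by 1.31 ± 0.34 (limma adjusted p = 0.0786). It passed the threshold in 4 of the 13 alternatives with a test, with a lowest limma adjusted p of 0.00254. The list medians were 0.22, -0.40 and -0.17 in Sf.Il2-/- v Sf, Sf v B6 and Sf.Il2-/- v B6. The medians of all genes were 0.08, -0.25 and -0.14.

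Of 24 genes known to control the members, 21 were measured and 20 tested. The limma counts were 0 higher and 1 lower in Sf.Il2-/- v Sf (0.0436% and 0.236% of all genes). They were 0 higher and 1 lower for Sf v B6 (1.31% and 1.16% of all genes). For Sf.Il2-/- v B6 they were 0 higher and 2 lower (1.49% and 1.2% of all genes). The list medians were 0.09, -0.33 and -0.44, beside 0.08, -0.25 and -0.14 for all genes. Foxo1, the FOXO factor that keeps naive T cells in place and that can switch on Bcl2l11 and Bbc3, fell in both mutants. It read 9.20, 9.36 and 9.75 in Sf.Il2-/-, 9.28, 9.18 and 9.60 in Sf and 11.28 in B6, with the mutant groups overlapping and B6 well above them. It fell by 1.93 ± 0.30 in Sf v B6, a 3.80-fold difference (limma adjusted p = 0.0153), and fell by 1.84 ± 0.30 in Sf.Il2-/- v B6, a 3.58-fold difference (limma adjusted p = 0.0176). The second call was lost without Sf.Il2-/- 1 (adjusted p = 0.0569), without Sf.Il2-/- 2 (adjusted p = 0.0512) or with its probe sets averaged (adjusted p = 0.0509).

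Il2ra, the alpha chain of the interleukin-2 receptor, read 3.10, 4.29 and 4.11 in Sf.Il2-/-, 7.79, 7.55 and 8.36 in Sf and 6.92 in B6, with every Sf.Il2-/- array apart from and below the others and under 5. It fell by 4.07 ± 0.34 in Sf.Il2-/- v Sf (limma adjusted p = 0.00132) and fell by 3.09 ± 0.48 in Sf.Il2-/- v B6 (adjusted p = 0.0140). As its Sf.Il2-/- values are dim these sizes are not exact, and with a pseudocount of 16 they were -3.10 and -2.20. In the same arrays Bcl2 differed by -0.39 in Sf.Il2-/- v Sf at its brightest probe set. Its other probe sets differed by -0.85 to -0.69 there, and all of them missed the threshold. The Bcl2 probe sets differed by -0.44 to -0.12 within set 1 and by -1.90 to -0.74 within set 2, which has 1 array of each group. A link between the Il2ra and Bcl2 differences was not tested. Foxo3, Stat5a, Stat5b, Il7r and Il2rb were tested and not called in any of the 3 comparisons, which does not show them unchanged. In Sf v B6 and Sf.Il2-/- v B6 the differences were -1.04 and -1.06 for Foxo3, 0.03 and 0.12 for Stat5a and -0.82 and -0.62 for Stat5b. They were -0.78 and -0.74 for Il7r and 0.76 and 0.93 for Il2rb. The medians of all genes there were -0.25 and -0.14.

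**Figure D4:**
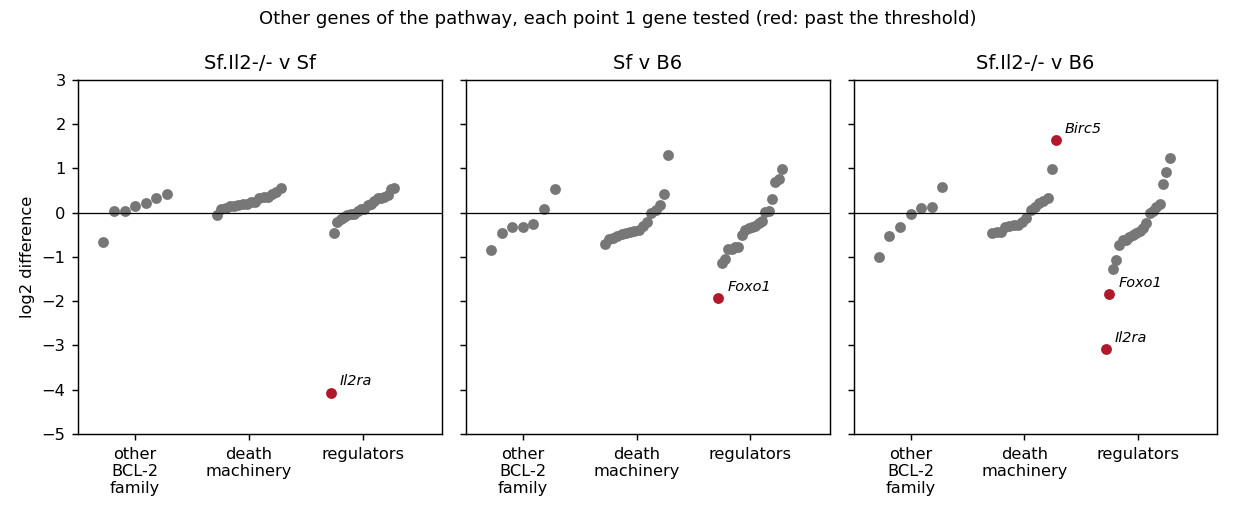
Differences (log2) of the tested genes of 3 lists (7 further BCL-2 family genes, 16 genes of the death machinery, 20 controllers of the members) in the 3 comparisons, 1 panel per comparison, with 1 point per gene and the called genes in red with their names. Il2ra at -4.07 and -3.09, Foxo1 at -1.93 and -1.84 and Birc5 at 1.63 are the called points.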

How the data were processed

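CD4+ T cell RNA of 3 Sf.Il2-/-, 3 Sf and 1 B6 arrays was analysed from the deposited table of 45037 probe sets, in which the authors give a linear intensity per probe set. The submitters' processing notes name GCRMA and GCOS and give no version, order or parameters. The titles call the arrays biological replicates.

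Of the probe sets, 34945 name 1 gene in the array annotation, 932 several and 9160 none, and 34741 symbols were updated through Entrez numbers to GRCm38.p6. Intensities were taken as log2(intensity + 1), the scale of every difference, which understates the change of low genes. A gene was represented by its brightest probe set and tested where its highest group mean reached 5. The 3 group means were fitted in limma 3.58.1 (R 4.3.3; lmFit, eBayes with trend) over 11460 genes and 7 arrays, leaving 4 residual degrees of freedom (9.57 after moderation). Adjustment was by Benjamini-Hochberg, with a threshold of 0.05. A second fit had 1 row per probe set. Intervals cover 95% and are not adjusted. The fit was tested on simulated data. Figures used matplotlib 3.10.9 in Python 3.11.15. The number of arrays limits the precision.

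Replicate numbers were checked for pairing by correlating deviations from group means of same-numbered mutant arrays. The titles do not say that numbers pair arrays, but r was 0.301, 0.211 and 0.505, all above 0.1, so same-numbered arrays deviated together. The reported values come from the fit without a block, and a replicate block was tried as an alternative. Array sets were told apart over 14762 dim probe sets, where r was at least 0.553 inside a set and at most 0.554 across sets, so the division is uncertain.

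The members, lists and alternatives were chosen with earlier results of these data known. Named are all members, every called gene of a pathway list or, where none was called, the 2 with the lowest p, and the 3 genes most like each called member. Foxo3, Stat5a, Stat5b, Il7r and Il2rb were named outside this rule after their values were seen, as known controllers. Further alternatives were no filter, a filter at 6, a pseudocount of 16, quantile normalization, arrays centred on medians, no trend, the mean of probe sets, the array set as a block, and leaving out arrays.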

Additional observations from a re-analysis of the deposited data

How the results depend on the processing

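The number of BCL-2 members called was 0 in Sf.Il2-/- v Sf under every alternative run, the replicate block included (replicate block: 0 members called), so the block changed no call. It was 0 without the filter in Sf v B6 and 0 in Sf.Il2-/- v B6. In Sf.Il2-/- v B6 it was 2 under quantile normalization and 2 with the array set as a block, where Bid joined Pmaip1. Calls over all genes in that comparison rose from 308 to 723 under quantile normalization. Leaving out 1 array gave 0 to 1 calls in Sf.Il2-/- v B6. Within array sets, the sign at the brightest probe set turned for Bak1 in Sf v B6 (0.48, set 2). In Sf.Il2-/- v Sf it turned for Bcl2l1 (-0.056), Bbc3 (0.17) and Pmaip1 (-0.010) in set 2 and for Bad (-0.039) in set 1. In the other alternatives signs turned as follows, and the cause of these turns was not tested. Under quantile normalization the log2 difference in Sf v B6 was 0.13 for Bbc3, 0.027 for Bcl2, 0.13 for Bcl2l11 and 0.031 for Mcl1. It was 0.086 for Bbc3 in Sf.Il2-/- v B6, and -0.11 for Mcl1 and -0.12 for Foxo1 in Sf.Il2-/- v Sf. With arrays centred on medians, Bbc3 gave 0.039 and Bcl2l11 gave 0.028 in Sf.Il2-/- v Sf. With the array set as a block, Bak1 gave 0.70 in Sf v B6. Without the arrays with S100a8 above 5, Pmaip1 gave -0.21 and Bcl2l14 gave -0.13 in Sf.Il2-/- v Sf. With probe sets averaged, Bcl2l2 gave 0.17 in Sf v B6 and 0.20 in Sf.Il2-/- v B6. Leaving out 1 array at a time, differences in Sf.Il2-/- v Sf ranged from -0.083 to 0.28 for Bad, from -0.13 to 0.86 for Bak1, from -0.19 to 0.067 for Bbc3, from -0.022 to 0.27 for Bcl2l1, from -0.14 to 0.029 for Bcl2l11, from -0.058 to 0.12 for Bcl2l14, from -0.069 to 0.21 for Foxo1 and from -0.073 to 0.44 for Pmaip1. They ranged from -0.69 to 0.0082 for Bak1 and from -0.20 to 0.050 for Bbc3 in Sf v B6, and from -0.0043 to 0.36 for Bad and from -0.43 to 0.50 for Bak1 in Sf.Il2-/- v B6.

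Over all genes the calls numbered 32 in Sf.Il2-/- v Sf, with 8 without Sf.Il2-/- 3 and 872 without Sf 3. They numbered 283 in Sf v B6, with 116 without Sf 1 and 3523 without Sf 3, and 308 in Sf.Il2-/- v B6, with 129 without Sf.Il2-/- 1 and 723 under quantile normalization. The comparisons with B6 rest on 1 array, and probe sets near the filter have low signal over background.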
